A study of Canis lupus familiaris with 6 samples.

Results

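The interferon-induced GTPases of the MX, GBP and IRG families were represented on the array by 9 probes of 6 genes, out of 43603 probes in all. Members were the probes whose symbol was MX1, MX2, IFGGB1 or IRGM, or GBP followed by a digit. MX1, MX2 and IFGGB1 had been selected on their measured rise in mix culture, so their difference between the cultures is given below as a description, with no p-value and no conclusion from it. The symbols were those of the array design, read as whole names, and 2 probes of CGGBP1, a repeat-binding protein of another kind, were therefore not counted.

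The profiled cells, called β-cat ΔN/RasV12 cells here, derive from MDCK, an epithelial line from dog kidney. In both groups they were MDCK-pTR GFP-RasV12 cells, in which tetracycline induces a constantly active Ras oncoprotein joined to GFP, and they also expressed mCherry-β-catenin Δ131, a β-catenin mutant without its N-terminus, at all times. In single culture (3 arrays) they grew alone, and in mix culture (3 arrays) each was surrounded by 10 MDCK mCherry-β-catenin Δ131 cells (β-cat ΔN cells), which carry the β-catenin mutant without RasV12. Both groups received tetracycline for 24 h, cells positive for GFP were then isolated by flow cytometry, and Cy3-labelled cRNA was made from their RNA. The comparison asks which genes β-cat ΔN/RasV12 cells express differently when β-cat ΔN cells surround them. Nothing in the labels says that replicates of a group were separate cultures, so the p-values measure only the spread between these samples. In bulk RNA of this kind, a change in the share of cells that express a gene and a change in RNA per cell cannot be told apart.

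MX, GBP and IRG proteins are large GTPases that cells make in response to interferons. MX proteins form rings and helices around viral ribonucleoproteins and block the replication of viruses. GBPs assemble on bacteria and on the vacuoles that hold intracellular parasites, and IRG proteins act on the same vacuoles. Interferons bind receptors on the cell surface, JAK kinases then phosphorylate STAT proteins, and the STAT complexes switch on these GTPases together with many other interferon-stimulated genes. MX and GBP genes are kept low in most resting epithelial cells.

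The sequences printed here are those of the probes, as the array design gives them, since they decide which transcript each value stands for. Coordinates are those of the design for the dog genome build CanFam3.1, and positions relative to exons were not analysed here. The MX1 probe nearer the start of the transcript (probe 1, chr31:35926713-35926772, plus strand) and the corresponding MX2 probe (chr31:35882609-35882668, plus strand) are set side by side, with the longest run that both share in capitals.
MX1 probe 1: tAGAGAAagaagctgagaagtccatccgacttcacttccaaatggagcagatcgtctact
MX2 probe 1: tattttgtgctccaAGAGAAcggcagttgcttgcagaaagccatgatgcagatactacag
The shared run was 6 of 60 bases, so these probes have little sequence in common although MX1 and MX2 are paralogues. The IFGGB1 probe (chr11:571340-571399, minus strand) is described by the design as an interferon-inducible GTPase 1-like transcript, and the GBP6 probe lies at chr6:59169547-59169606 on the plus strand. Their first 30 bases are printed in lower case.
IFGGB1: ggaatctggagttttctgaccagtggaggg
GBP6: ggagagatttggtagtgagattgtttcaat
The other MX1 probe (probe 2) lies at chr31:35929743-35929802 and the other MX2 probe at chr31:35883302-35883361. The MX1 and MX2 probes of the design stand 43411 to 47134 bp apart on chromosome 31, on the same strand. The GBP1 probes (chr6:59383985-59384044 and chr6:59393019-59393078) lie 214438 bp and 223472 bp from that of GBP6, and the IRGM probe (chr11:794525-794584) lies 223185 bp from that of IFGGB1.

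MX2, IFGGB1 and MX1 were all much brighter in the cells from mix culture, and no array of single culture reached the level of any array of mix culture. MX2 stood highest by fold, at 31.7 and 25.6 times its single culture level by its probes. IFGGB1 followed at 18.2 times and MX1 at 10.3 and 9.01 times. GBP6 came up from below detection. GBP1 and IRGM were not well above background in most or all arrays. These values are normalised log2 signals, that is, log2 of the background-subtracted intensity minus the 75th percentile of its array, and all errors are SD over 3 arrays unless called an SE. Signals before this scaling are given in intensity units, and the level of a probe was compared only between arrays, never with that of another probe.

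MX2 is the paralogue of MX1 and in several mammals restricts lentiviruses. Probe 1 of MX2 read 6.57, 9.68 and 7.97 intensity units in single culture replicates 1 to 3, and 248, 364 and 206 units in mix culture. Every array was well above background, the single culture arrays lay close to the dim end of what could be measured, and the cultures were far apart. The normalised log2 signal went from −4.50 ± 0.43 to 0.48 ± 0.47 (SD, n = 3 each), a difference of 4.99. Probe 2 of MX2, which is 693 bp further along, read 34.2, 54.8 and 43.9 units in single culture and 1105, 1570 and 907 units in mix culture. Its difference was 4.68 on the log2 scale, from −2.06 ± 0.50 to 2.62 ± 0.45 (SD, n = 3 each). Replicate 2 was the brightest of its group for either MX2 probe, in both cultures. The probes' differences stood 0.31 apart on the log2 scale, which was less than the SD of either probe within a group.

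MX1 is the antiviral protein best known for blocking influenza virus. Probe 1 of MX1 read 109, 166 and 96.3 units in single culture and 1247, 1406 and 1247 units in mix culture. The normalised log2 signal went from −0.58 ± 0.50 to 2.78 ± 0.31 (SD, n = 3 each), a difference of 3.36. All its arrays were well above background, in cells grown alone as well as in mix culture, and the cultures did not overlap. Probe 2 of MX1 read 1044, 970 and 609 units in single culture and 10411, 7130 and 6962 units in mix culture. Its log2 difference was 3.17, from 2.24 ± 0.37 to 5.41 ± 0.09 (SD, n = 3 each), which lay 0.19 from that of probe 1. The 3 mix culture arrays agreed more closely with one another on probe 2 than those of single culture did.

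IFGGB1 belongs to the IRG family, whose best known members in mice protect cells against vacuolar parasites. Its probe read 14.1, 7.03 and 7.16 units in single culture and 218, 211 and 107 units in mix culture. All arrays were well above background, replicate 1 was the brightest of single culture, and replicate 3 was the dimmest of mix culture. Its mean normalised log2 signal went from −4.34 ± 0.41 to −0.15 ± 0.41 (SD, n = 3 each), a difference of 4.19.

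GBP6 is a guanylate-binding protein. In single culture its probe stayed below the limit for well above background throughout, at 3.08, 3.05 and 2.62 units, and in mix culture it passed that limit on all 3 arrays, at 22.8, 15.7 and 10.1 units. The lowest signal among probes well above background was 4.19 to 4.48 units per array. With the single culture arrays set to that limit, GBP6 was at least 3.46-fold higher in mix culture, as a ratio of means of normalised log2 values. The mix culture arrays themselves were dim, so that GBP6 was the least firmly measured of the members that differed.

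GBP1, the founding member of the GBP family, gave no such pattern. Its probe 1 was not well above background on any array, at 1.19 to 3.08 units in single culture and 1.03 to 4.64 units in mix culture. Its probe 2, which ends on the bases of a stop codon (TGA), read 1.52, 1.45 and 1.08 units in single culture and 9.49, 1.53 and 2.40 units in mix culture. On that probe the groups overlapped, and mix culture replicate 1 was the single array well above background. IRGM, the IRG member that also takes part in autophagy, read 0.93 to 1.19 units over all 6 arrays and was nowhere well above background. A level below that limit was not detectable on these arrays, which does not show that the gene was silent.

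**Figure D1:**
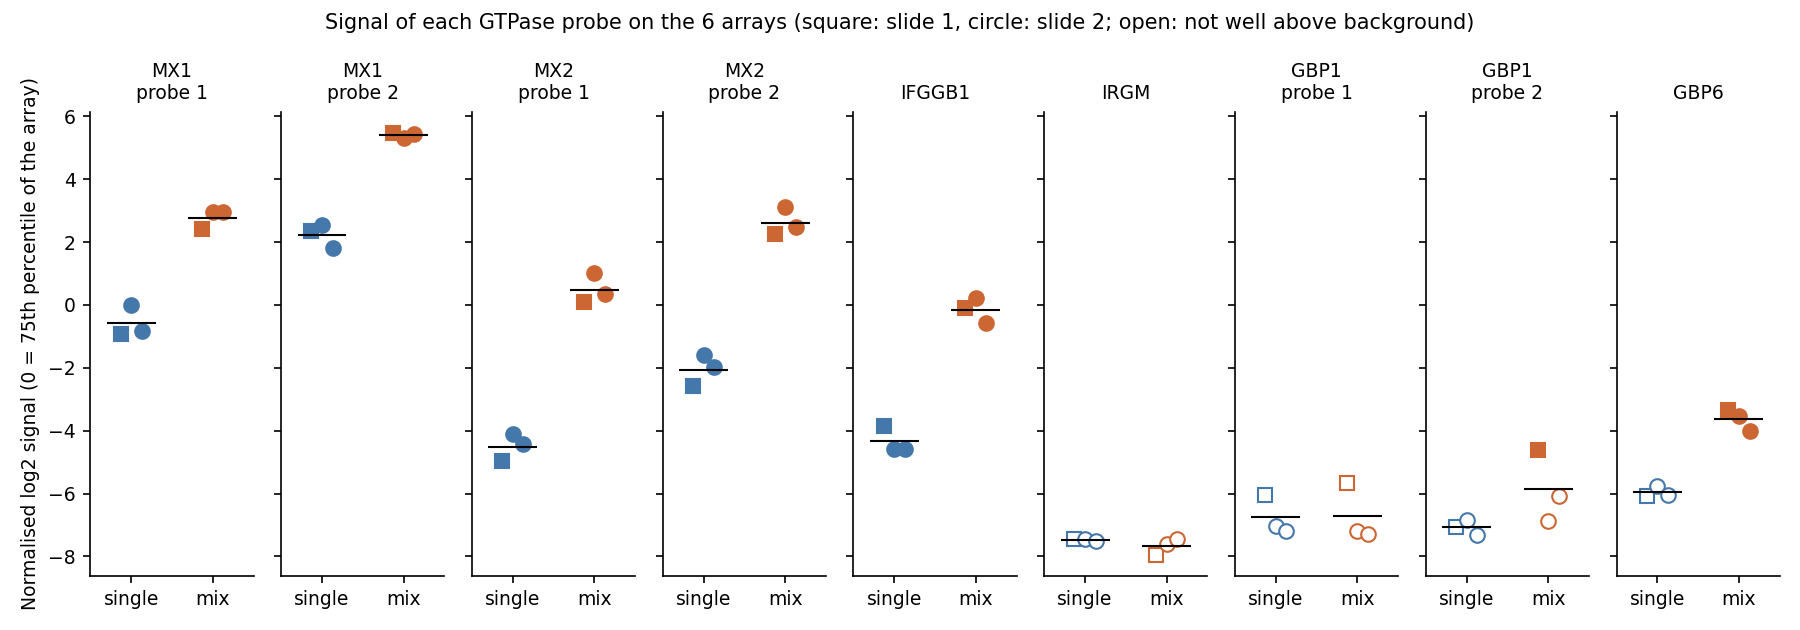
Normalised log2 signal (y axis; 0 is the 75th percentile of the array) of each of the 9 probes in single and mix culture, with 1 point per array and a line at the mean of 3 arrays. Squares are slide 1 and circles slide 2, and open points were not well above background. The points of MX1, MX2, IFGGB1 and GBP6 form separate groups by culture, whereas those of IRGM and GBP1 overlap.

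Of the 9 member probes, 6 were tested across the array, since all 3 arrays of 1 or both groups were well above background, and 3 (IRGM and both GBP1 probes) were not. All 6 were called higher in mix culture by limma at a Benjamini-Hochberg adjusted p under 0.05, beside 0.815% of the 26623 probes tested. Calls in either direction made up 0.883% of those probes, and calls lower in mix culture 0.0676%. With same-numbered arrays as a block, 1399 probes in all were called instead of 235, and with slide as a block 1917, the 6 member probes among them both times. The 6 probes also had no overlap between the cultures with mix culture above, as had 7.85% of all probes tested. Since the choice of members used these values, nothing is read from these counts. Among all probes tested, ranked by the log2 difference in favour of mix culture, the MX2 probes stood 6th and 8th, IFGGB1 21st and the MX1 probes 52nd and 63rd.

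The size of these differences, for the dim probes above all, changed with a background correction that adds an offset of 50 units to every spot. With the normexp background correction in place of the scanner's own subtraction, the log2 difference was 2.11 and 3.64 for the MX2 probes, 1.81 for IFGGB1, and 2.85 and 3.08 for the MX1 probes. GBP6 then differed by 0.25 and was no longer called. The values of MX2 probe 1 and IFGGB1 thus fell more than those of MX1. The offset is large beside the single culture signals of the dim probes and by itself shrinks their differences. Its share was not separated from that of the background estimate.

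Replicate 1 of each culture lay on slide 1 and the other 4 arrays on slide 2, so the difference could be taken within each slide. On slide 1 the log2 difference was 5.06 and 4.84 for the MX2 probes, 3.77 for IFGGB1, and 3.33 and 3.14 for the MX1 probes. On slide 2 it was 4.95 and 4.60 for MX2, 4.40 for IFGGB1, and 3.38 and 3.19 for MX1. The direction on each slide was fixed in advance, since the cultures did not overlap for these probes. Only the size could differ between slides. IFGGB1 stood furthest apart between slides, at 13.6-fold on slide 1 and 21.1-fold on slide 2.

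The difference between slides in the effect of culture lay within its SE for the 4 MX probes, between −0.24 and 0.05 on the log2 scale with an SE of 0.39 to 0.44. For IFGGB1 it was 0.63 (SE 0.42), and for GBP6, whose single culture arrays were below the limit, the fit gave −0.57 (SE 0.32). None of the 5 probes of MX1, MX2 and IFGGB1 was called for a culture by slide interaction (limma adjusted p from 0.708 to 0.985), beside 0.0376% of all probes tested. None had an unadjusted p under 0.05 either. GBP6 was not called, but its single culture arrays were below the limit, so no p-value is given for it. This fit leaves few residual degrees of freedom, and the absence of a call does not show that the slides gave equal effects.

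Slide itself was not used to choose the members, and it separated many probes. Slide 1 was scanned at 3 µm per pixel and slide 2 at 5 µm, with different software versions, and slide 1 held replicate 1 alone. A difference between slides cannot be told apart from these. With culture in the model, 47.2% of the probes tested differed between slides. Both MX2 probes were among them, higher on slide 2 by 0.64 (SE 0.19, limma adjusted p = 0.0255) and 0.68 (SE 0.19, limma adjusted p = 0.0213) on the log2 scale. MX1 probe 1 was higher on slide 2 by 0.51 (limma adjusted p = 0.0771). MX1 probe 2 differed by −0.14 (limma adjusted p = 0.57) and IFGGB1 by −0.40 (limma adjusted p = 0.19). GBP6 differed by −0.13, a value that rests in part on single culture arrays below the limit for well above background. The MX2 slide difference was far smaller than its culture difference. It rested on slide 1, which held 1 array per culture: without either of these arrays no member was called for slide, and without single culture replicate 2 a single probe was.

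**Figure D2:**
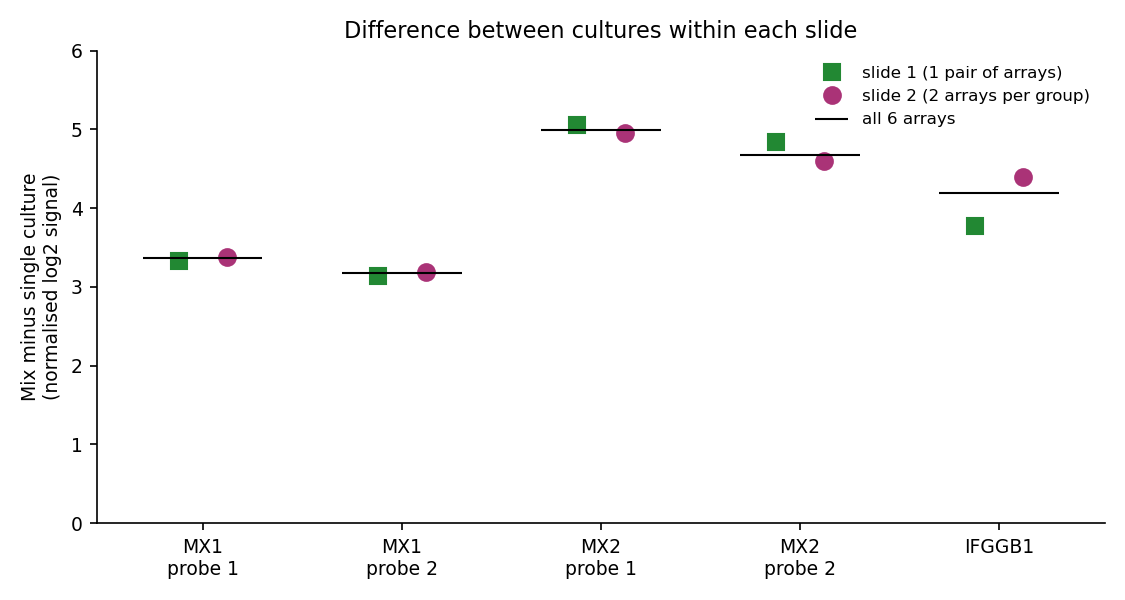
Difference between mix and single culture in normalised log2 signal (y axis) for the 5 probes of MX1, MX2 and IFGGB1. Squares are slide 1 (1 array per culture), circles are slide 2 (means of 2 arrays per culture) and lines are all 6 arrays. All points lie between 3.14 and 5.06, and IFGGB1 has the widest distance between slides.

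Other genes near the members or of the same families by their description gave a mixed picture. An unnamed probe of the design between the MX2 and MX1 probes (chr31:35919972-35920084) read 157, 210 and 122 units in single culture and 1849, 1756 and 1592 units in mix culture. It was higher in mix culture by 3.38 on the log2 scale (SE 0.25, limma adjusted p = 0.00191), close to the values of MX1, and its transcript was not identified here. IFGGC1 (chr11:838851-838910), which the design describes as an interferon-gamma-inducible GTPase, read 5.36, 2.12 and 3.01 units in single culture and 20.7, 18.0 and 10.97 units in mix culture. It was tested only because all 3 mix culture arrays were well above background, against 1 of 3 in single culture. Its fitted log2 difference of 2.24 is therefore uncertain in size, and no p-value is given for it.

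The remaining relatives were not called in either direction. LOC612422, described as guanylate-binding protein 4-like and placed between the GBP6 and GBP1 probes (chr6:59246681-59246740 and chr6:59246925-59246984), was well above background on all 6 arrays. Its first probe read 31.4, 25.5 and 26.2 units in single culture and 38.5, 21.4 and 23.5 units in mix culture. Its log2 difference was −0.10 (SE 0.17, limma adjusted p = 0.958) on that probe and 0.00 (SE 0.14, limma adjusted p = 0.999) on the other. GBP6, which came up from background, thus had a neighbour of its family that was measured on all arrays and was not called. LOC476445, described as interferon-inducible GTPase 5-like, differed by −0.39 (SE 0.18, limma adjusted p = 0.637), and IRGQ, an IRG-like protein of autophagy, by 0.01 and −0.26 on its probes, neither of them called.

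A list called related GTPases here held 18 genes not known as interferon-induced (dynamins, mitofusins, atlastins, EHD proteins, which bind ATP, and others). LOC476445 and IRGQ were included. Of these 18 genes, 17 matched a probe and 13 were tested, on the brightest probe of each gene. None was called (limma, adjusted over all probes tested), and the median log2 difference was −0.07, beside −0.05 over all probes tested. DNM3, a dynamin of neurons and other cells, had the widest difference, at −1.29 (SE 0.37, limma adjusted p = 0.299). With slide or with replicate number as a block it was called lower in mix culture (limma adjusted p = 0.0119 and 0.016). DNM2, the dynamin of most tissues, and DNM1L, which divides mitochondria, differed by −0.06 and 0.34 and were not called.

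**Figure D3:**
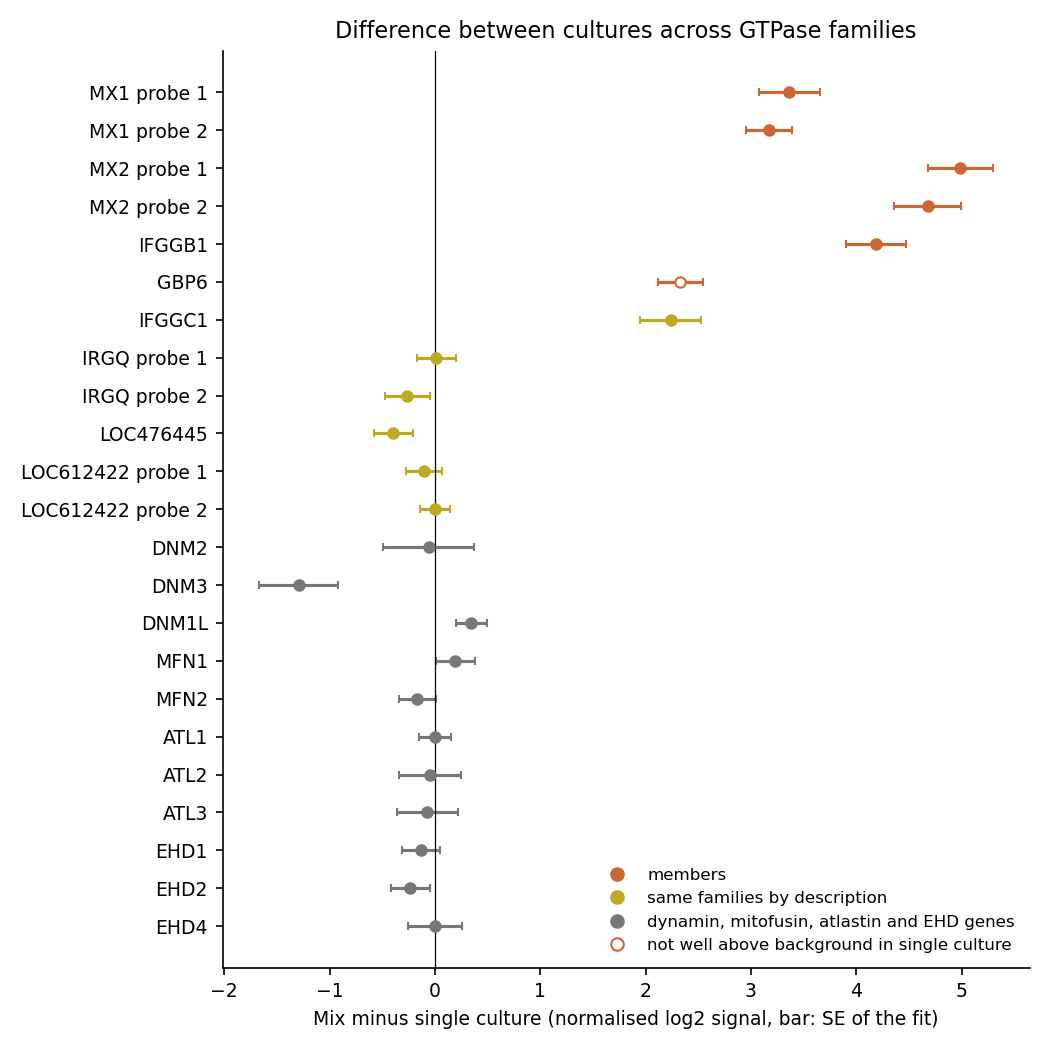
Difference between mix and single culture in normalised log2 signal (x axis), with the SE of the limma fit as bars, for the 6 member probes tested, other probes described as of the MX, GBP or IRG families, and related GTPases. The open point of GBP6 was not well above background in single culture, and IFGGC1 was so on 1 of its single culture arrays. The points of MX1, MX2, IFGGB1, GBP6 and IFGGC1 lie above 2, those of GBP6 and IFGGC1 being uncertain in size. Those of the remaining relatives and related GTPases lie between −1.29 and 0.34.

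Proteins that GBP and IRG proteins work with, such as the ATG8 conjugation system of autophagy and the inflammasome, were listed next. Of 23 genes listed, 16 matched a probe, 14 were tested and none was called, with a median log2 difference of −0.10. ATG5 and ATG7, which are needed to place IRG proteins on vacuoles, differed by −0.15 and −0.20 and were not called. PIM1, a kinase known to bind GBP1, differed by −0.08 and was not called. The probes of CASP4 and of NLRP3, parts of inflammasomes, were below the limit for testing. CASP1, PYCARD, AIM2 and GSDMD matched no probe. The absence of calls therefore says nothing about the inflammasome.

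In a list of interferon receptors, signalling proteins and their regulators, 1 gene passed the test. None of the receptors, JAK kinases, STAT or IRF factors tested was called in this fit. Of 16 genes listed, 10 matched a probe and 9 were tested, with a median log2 difference of −0.02. USP18, a protease that removes ISG15 from proteins and damps signalling at the type I interferon receptor, was the one call, higher in mix culture by 1.61 (SE 0.19, limma adjusted p = 0.0124). It read 25.5, 29.3 and 20.8 units in single culture and 99.4, 79.5 and 64.3 units in mix culture, without overlap. The call was lost without mix culture replicate 2, mix culture replicate 3 or single culture replicate 3, with USP18 still 1.51 to 1.65 higher (limma adjusted p from 0.0713 to 0.0881), and with normexp, where it was 0.66 higher (limma adjusted p = 0.107).

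STAT2, which carries type I interferon signals to the nucleus with IRF9, differed by 0.66 (SE 0.20, limma adjusted p = 0.323), from 51.9, 55.9 and 57.0 units to 92.3, 93.7 and 87.3 units. It was called with slide or with replicate number as a block (limma adjusted p = 0.0069 and 0.0179). Slide as a block also called IFNLR1, a receptor chain for type III interferons, which was lower by 0.57 in mix culture (limma adjusted p = 0.0427). IRF9, IRF1 and IFNGR1 differed by −0.13, 0.18 and −0.02 and were not called. IFNAR1, IFNAR2 and TYK2 were matched to no probe by name and were not analysed here.

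Of 9 interferon genes listed, 4 matched a probe. IFNB1 read 1.16 to 1.49 units and IFNG 1.03 to 1.08 units over the 6 arrays, none of them well above background. IFNK, an interferon of epithelial cells, read 29.5, 35.5 and 32.5 units in single culture and 74.7, 50.01 and 58.4 units in mix culture. Its log2 difference of 0.83 (SE 0.20) was not called (limma adjusted p = 0.192), and was called with slide or with replicate number as a block (limma adjusted p = 0.0197 and 0.0336). IFNA7 differed by −0.19 and was not called. The deposited table, which is centred within slides, gave 1 call among the ligands too. IFNB1 and IFNG were thus not measurable, whereas IFNK and the tested probe of IFNA7 were well above background on all 6 arrays. A second probe of IFNA7 was not tested.

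Other interferon-stimulated genes share the inducing pathway with MX, GBP and IRG genes, and most of those tested were higher in mix culture. Of 43 genes listed, 34 matched a probe and 32 were tested. Of these, 21 were called higher in mix culture and none lower, and 11 were not called. Over all probes tested, 0.815% were called higher. The median log2 difference was 1.71, beside −0.05 over all probes tested. The list was drawn up with earlier results of these data known and is not independent evidence of its direction. IFIT1, which binds viral RNA, rose by 3.91 (SE 0.19, limma adjusted p = 0.000614), from 10.9, 13.1 and 10.95 units to 251, 165 and 148 units, and with normexp by 1.85. IFI44L rose by 3.07 (SE 0.34, limma adjusted p = 0.0097), and with normexp by 2.67. DHX58, a helper of RNA sensors, had a fitted difference of 3.54, and of 0.68 with normexp. In single culture 1 of 3 arrays was well above background, so this size is uncertain and no p-value is given for it. The DHX58 call was lost in 7 of 12 alternatives, and that of IFI44L without mix culture replicate 3 or single culture replicate 3 (limma adjusted p = 0.0631 and 0.0549). The number called was 28 with replicate number and 29 with slide as a block, 15 with normexp, and 9, 7 and 6 without mix culture replicate 2, mix culture replicate 3 and single culture replicate 3.

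The 5 named genes whose signal over the 6 arrays was most like the mean of the MX1, MX2 and IFGGB1 probes, among 25610 probes well above background on all arrays, were PARP14, WDFY3, FAM13C, PCK1 and IFIT1. Their Pearson correlations with that mean were 0.995, 0.995, 0.994, 0.994 and 0.994 over 6 arrays, which share their 2 cultures and slides, and are given as a description. A correlation takes no account of size. PCK1, a rate-limiting enzyme of gluconeogenesis, differed by 4.42 between the cultures, FAM13C by 2.32 (1.02 with normexp) and PARP14, an ADP-ribosyltransferase, by 1.73. WDFY3, a scaffold of selective autophagy, differed by 0.50 and was not called, though it was with slide as a block. The 5 genes were picked for following a pattern that differs between the cultures. No p-value is therefore given for them here, and nothing is read from these calls.

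**Figure D4:**
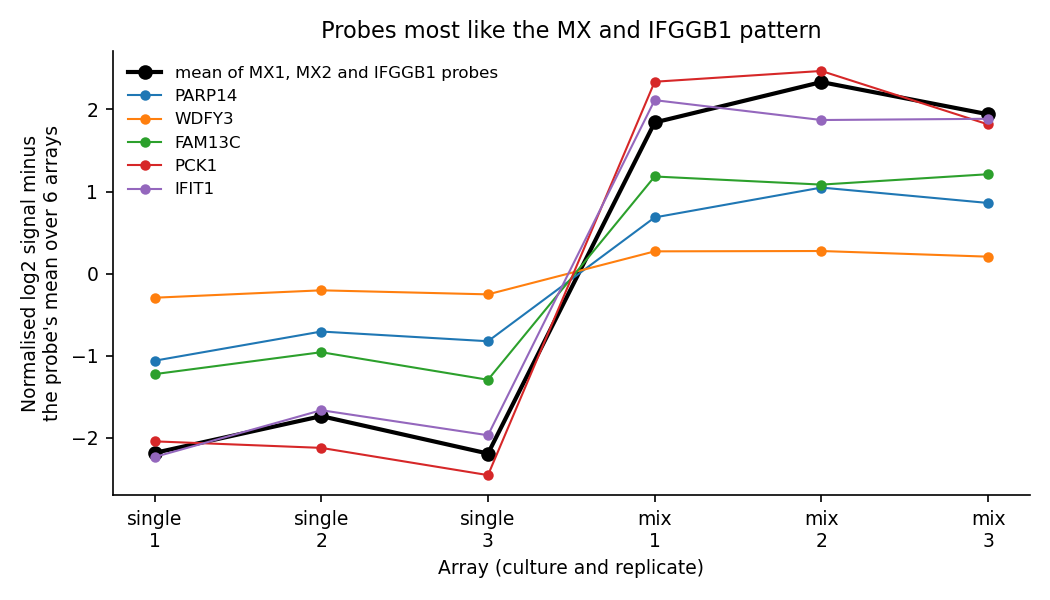
Normalised log2 signal minus the probe's own mean over 6 arrays (y axis) on each array (x axis), for the mean of the 5 MX1, MX2 and IFGGB1 probes (black) and for the 5 named genes most correlated with it. All lines step up between single and mix culture, by 4.42 for PCK1 and 0.50 for WDFY3, and the lines join arrays only as a guide.

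Markers of the labelled cell type were present, and some listed for other cell types gave signal as well. All 10 kidney epithelium markers with a probe were well above background on every array and none was called (2 with slide as a block, 1 in each direction), with a summed signal, relative to the 75th percentile of each array, of 684 to 845 in single culture and 504 to 694 in mix culture. Of 13 markers of leucocytes, endothelium and fibroblasts, 9 were well above background on each single culture array and 7 to 10 on the mix culture arrays, and none was called. Their summed signal was 7.54 to 17.4 in single culture and 6.47 to 17.2 in mix culture, and most of it came from VWF, at 742 to 3183 units, with both of its highest arrays on slide 1. PTPRC, LYZ and DCN were well above background on no array. The surrounding β-cat ΔN cells are of the same line and no marker here sets them apart from the sorted cells, so their part in the MX, GBP6 and IFGGB1 values was not tested. Over the arrays, 61.1% to 65.7% of spots were well above background and no spot was saturated.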

How the data were processed

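RNA of 6 samples was hybridised to single-colour Agilent canine arrays. The authors deposited each array's scanner output, in which every spot has an intensity on a linear scale, background-subtracted by Agilent Feature Extraction 11.5.1.1 (slide 1) or 12.1.1.1 (slide 2) per the file headers. They also deposited a table of log2 values, centred within each slide. In that table the column named mix culture replicate 2 followed the scanner values of replicate 3 (r = 0.999) and the reverse (r = 0.993), so titles of scanner files were used.

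Control and outlier spots were left out, spots of a probe were averaged, and log2 signals were centred on each array's 75th percentile. Probes entered the test when all arrays of 1 or both groups were well above background. Groups, taken from the titles, were set against each other in limma 3.58.1 (R 4.3.3, two-sided, Benjamini-Hochberg over 26623 probes, call at adjusted p under 0.05). The fit was also run on simulated data with noise independent between arrays. The arrays here were not independent in that way, so the simulation does not check their calls. Same-numbered arrays deviated together (r = 0.801, 0.530 and 0.572), as did differently numbered arrays of slide 2 (0.610 and 0.632). The alternatives were normexp (offset 50, on median signals), quantile normalisation, other filters, slide or replicate as a block, the deposited table, and each array left out.

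For lower bounds, each dim array took the higher of its own signal and its lowest signal well above background. Named genes were all members, called genes of the signalling, GTPase and partner lists, the 3 largest called changes of other lists, and the 5 most correlated genes. Other names were chosen after their values were seen. The members and lists were chosen with earlier results of these data known.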

Additional observations from a re-analysis of the deposited data

How the results depend on the processing

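The contrast between the cultures chose the members, so the calls of member probes below support nothing. The 5 probes of MX1, MX2 and IFGGB1 were higher in mix culture under all 13 alternatives. For most of these the direction was fixed in advance. The blocks and filters leave a probe's log2 difference as it was, and the cultures did not overlap, so leaving out an array could not reverse it. Nothing is read from this agreement. With any array left out, the log2 difference was 4.73 to 5.19 and 4.41 to 4.90 for MX2, 4.002 to 4.43 for IFGGB1, and 3.20 to 3.65 and 2.96 to 3.32 for MX1. Member probes called numbered 5 or 6 in every alternative, GBP6 being lost with normexp and not tested with a filter on all 6 arrays. Over all probes, 235 were called, against 1399 with the replicate block, 1917 with slide as a block, 4077 in the deposited table, 101 with normexp, 143 with a filter on all 6 arrays, and 92 to 247 with an array left out (92, 99 and 92 without mix culture replicate 2, mix culture replicate 3 and single culture replicate 3). The member probes called for slide numbered 0 to 3 with an array left out. Of the receptor and signalling genes, 2 were called with the replicate block, 3 with the slide block, 3 in the deposited table, 0 with normexp, and 0 to 1 with an array left out. Of the ligands, 1 was called with the replicate block, the slide block and the deposited table. Of the related GTPases, 1 was called with either block and 2 in the table, and of the partners 1 in the table. Other interferon-stimulated genes called numbered 28 with the replicate block, 15 with normexp, 29 with slide as a block, and 6 to 20 with an array left out. The cause was not tested. DHX58 lost its call in 7 of 12 alternatives, at 2.96 to 4.09 with an array left out. Among the 6 member probes tested and the 8 other genes traced through the alternatives (DHX58, FAM13C, IFI44L, IFIT1, PARP14, PCK1, USP18 and WDFY3), no log2 difference changed sign. The cultures did not overlap for any of them, so the blocks, filters and left-out arrays could not have changed it. IRGM, and GBP1 apart from its probe 2 on mix culture replicate 1, were too close to background to be measured.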
